A study of Mus musculus with 6 samples.

Results

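Adrenergic receptors carry the signal of noradrenaline and adrenaline into the heart cell, and 9 genes of this pathway were followed in heart RNA: Adrb1, Adra1a, Adra1b, Adcy5, Adcy6, Grk5, Prkaca, Pde4b and Pde4d. They were chosen by symbol, and all 9 were found by NCBI gene ID among the 18019 genes of the deposited table. The hearts came from mice labelled wild type, 8 weeks after transverse aortic constriction (TAC), an operation that narrows the aorta and overloads the left ventricle. The 3 VNS-TAC libraries came from mice whose dorsal vagal motor nucleus, a brainstem source of vagal outflow, had received an adeno-associated virus with the light-gated channel hChR2(H134R) fused to GFP, driven by the ChAT promoter of cholinergic neurones. Light was used to activate these vagal neurones (optogenetics), and the library names of the group carry 10Hz. The labels do not spell out VNS or say when or how long light was given. The 3 Ctrl-TAC libraries came from mice given the same kind of virus with GFP alone. Both groups carried the constriction, no unoperated heart is analysed here, and the sources used here do not give strain, sex, age or the number of animals per library.

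In a heart muscle cell, the Adrb1 product couples to the stimulatory G protein Gs, which activates adenylyl cyclase to make cyclic AMP (cAMP). cAMP releases the catalytic subunit of protein kinase A (PKA), which phosphorylates calcium-handling and contractile proteins and so raises rate and force. Receptor kinases such as Grk5 switch active receptors off, phosphodiesterases of the PDE4 family break cAMP down, and Adra1a and Adra1b act through a separate G protein, Gq. Vagal nerves oppose sympathetic drive to the heart, and chronic overload is known to blunt adrenergic signalling.

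PKA also phosphorylates the transcription factor CREB, which binds the letters TGACGTCA or their shorter core TGACG. Read on the opposite strand, the core is CGTCA. The 250 bases before each start were therefore searched for these letters on both strands in the RefSeq promoter windows (GRCm38.p6), which matched 7 of the 9 genes with 12 windows. The 4 windows below are shown because they belong to the PDE4 pair that differed most in the libraries and to the 2 other genes with a match. All lie on the plus strand and are written 5′ to 3′, with the core letters in capitals.
Pde4b, chr4:102421305-102421554: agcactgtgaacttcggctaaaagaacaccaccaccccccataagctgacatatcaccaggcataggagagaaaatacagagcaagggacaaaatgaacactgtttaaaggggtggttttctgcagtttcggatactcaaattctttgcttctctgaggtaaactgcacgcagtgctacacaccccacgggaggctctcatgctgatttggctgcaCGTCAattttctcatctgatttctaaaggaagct
Pde4d, chr13:108653927-108654176: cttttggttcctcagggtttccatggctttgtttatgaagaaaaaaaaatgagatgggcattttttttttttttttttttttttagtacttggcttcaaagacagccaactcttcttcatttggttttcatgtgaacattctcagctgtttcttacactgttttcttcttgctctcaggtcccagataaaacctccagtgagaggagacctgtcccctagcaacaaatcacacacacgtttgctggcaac
Prkaca, chr8:83972728-83972977: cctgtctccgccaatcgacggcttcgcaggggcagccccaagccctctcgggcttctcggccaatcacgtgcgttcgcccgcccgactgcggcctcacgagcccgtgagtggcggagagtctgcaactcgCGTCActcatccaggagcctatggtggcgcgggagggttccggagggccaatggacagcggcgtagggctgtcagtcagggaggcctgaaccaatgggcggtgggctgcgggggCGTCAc
Adrb1, chr19:56721867-56722116: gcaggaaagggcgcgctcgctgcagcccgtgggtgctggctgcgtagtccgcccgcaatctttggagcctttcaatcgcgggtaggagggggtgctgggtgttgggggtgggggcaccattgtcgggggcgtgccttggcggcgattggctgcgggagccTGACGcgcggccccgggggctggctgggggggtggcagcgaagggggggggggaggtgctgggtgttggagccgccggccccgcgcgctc
The core stood 34 bases before this Pde4b start and 90 before that of Adrb1, counted to its first letter, and at 120 and 6 before that of Prkaca. The Pde4d window and the 3 windows of other Pde4b starts held none. In all, 3 of the 12 windows held the core, against 17.8% of 32851 windows of the same length, and 0 held TGACGTCA, against 1.55%. The windows with the core had a GC content of 74.0% (Adrb1), 68.8% (Prkaca) and 46.0% (Pde4b), against a median of 52.4% over all windows. The shares were not matched for GC content. These matches are letters only, and binding was not measured.

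Values are FPKM (fragments per kilobase of gene, scaled to library size), so levels of different genes can be compared per length. Groups were compared with limma, a linear model over all genes, on log2(FPKM + 1), which understates the change of low genes; differences below are VNS-TAC minus Ctrl-TAC on that scale with a 95% interval. All 9 genes passed the filter of a mean of at least 1 FPKM, as did 11422 genes in all. The steps that single fragments leave in the low values gave about 13620000 to 15840000 fragments per library, and so roughly 192 fragments for the thinnest value of these genes (Adrb1 in VNS-TAC 3) and 9060 for the deepest (Adcy6 in VNS-TAC 3). Libraries VNS-TAC 1 and VNS-TAC 3 stood apart: correlations across genes were 0.941 to 0.979 within VNS-TAC and 0.988 to 0.992 within Ctrl-TAC. Library VNS-TAC 1 deviated from the gene means along with GC content (Spearman 0.548 across genes, against -0.417 to 0.02 in the other libraries). Cardiomyocyte markers such as Myh6 and Tnnt2 were abundant in every library, and their summed level was 85040, 71490 and 53440 FPKM in VNS-TAC 1 to 3, with controls at 62700 to 65510. In whole tissue, fewer cells of a type and less RNA per cell cannot be told apart.

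**Figure D1:**
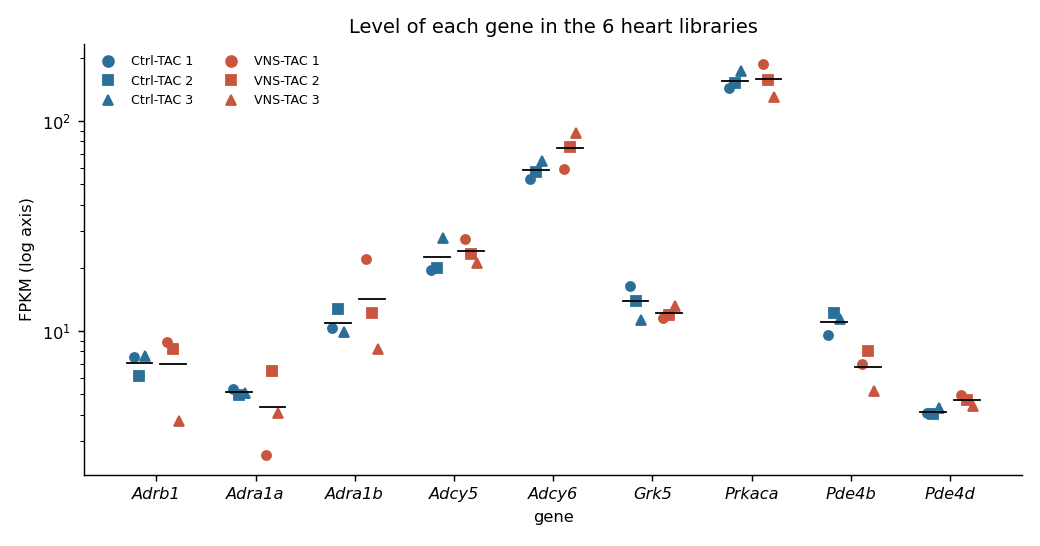
FPKM of each of the 9 genes on a log axis, with 1 symbol per library and a black line at the mean of each group of 3. Pde4b lay lower in all 3 VNS-TAC libraries (5.19 to 8.07) than in Ctrl-TAC (9.57 to 12.15), and the 3 receptor genes spread more widely in VNS-TAC.

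None of the 9 genes differed between VNS-TAC and Ctrl-TAC at a limma p adjusted over all genes of 0.05, and 0 of the 11422 genes did (0.0%). At an unadjusted limma p under 0.05 there was 1 of the 9, Pde4b, which was lower, where 11.3% of all tested genes were lower and 3.79% higher at that level. The groups did not overlap for 2 of the 9, Pde4b (lower) and Pde4d (higher), where 17.4% of all tested genes were lower and 8.01% higher without overlap. These shares are close to those of the whole table. The median difference was 0.01 over the 9 genes and -0.08 over all tested genes, and 5 of the 9 had a higher mean in VNS-TAC, as did 38.2% of all tested genes.

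The receptors were compared first. Adra1b (chromosome 11, 43774605 to 43901250, GRCm38.p6), which acts through Gq, was the most abundant of the adrenergic receptor transcripts described here in every library. It stood at 22.09, 12.24 and 8.25 FPKM in VNS-TAC 1 to 3, whereas the controls gave 10.31, 12.66 and 9.87. VNS-TAC 1 was thus the highest and VNS-TAC 3 the lowest of the 6, and the groups overlapped. The difference was 0.25 (interval -0.48 to 0.98; limma adjusted p = 0.7), and it was -0.10 without VNS-TAC 1 and 0.56 without VNS-TAC 3.

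Adrb1 (chromosome 19, 56722117 to 56725150), the main receptor for noradrenaline on heart muscle, stood at 8.86, 8.25 and 3.74 FPKM in VNS-TAC 1 to 3, whereas the controls gave 7.49, 6.12 and 7.58. Libraries 1 and 2 of VNS-TAC lay above every control and VNS-TAC 3 below every control, at nearly equal group means of 6.95 ± 2.80 and 7.06 ± 0.82 (SD, n = 3). The interval of the difference, -0.74 to 0.57, leaves room for a change of either sign (estimate -0.09; limma adjusted p = 0.893). Without VNS-TAC 3 the estimate was 0.25, and without VNS-TAC 1 it was -0.28. The 3 tested genes whose values lay nearest to those of Adrb1 over the 6 libraries were Inka1, Mrpl46 and Extl1, at a mean absolute distance of 0.07 to 0.08 on the centred log2 scale.

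Adra1a (chromosome 14, 66635251 to 66771240), the other main Gq-coupled receptor of the myocyte, stood at 2.56, 6.47 and 4.05 FPKM in VNS-TAC 1 to 3, whereas the controls gave 5.27, 4.97 and 5.04. VNS-TAC 1 was here the lowest of the 6 and VNS-TAC 2 the highest, so the library with the most Adra1b had the least Adra1a. The difference was -0.25 (interval -0.85 to 0.35; limma adjusted p = 0.632) and 0.01 without VNS-TAC 1. Its longest transcript has a GC content of 50.1%, against 54.5% for Adra1b and 58.8% for Adrb1, and with the GC trend of each library removed the differences were -0.20, 0.23 and -0.12, respectively.

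Among 8 adrenergic receptor genes summed here, Adra1b made up 49.0 ± 9.01% of the summed FPKM in VNS-TAC and 42.6 ± 4.47% in Ctrl-TAC (SD, n = 3). Adrb1 made up 24.2 ± 3.41% and 27.6 ± 4.04%, and Adra1a 17.2 ± 8.99% and 19.9 ± 0.98%. Adra1d, the third Gq-coupled receptor gene, was at 2.21 ± 1.21 against 1.87 ± 0.65 FPKM (SD, n = 3; difference 0.12, limma adjusted p = 0.865). Adra2a, Adra2b, Adra2c and Adrb3 were under 1 FPKM in all 6 libraries. The sum of the 8 was 37.49, 29.59 and 17.7 FPKM in VNS-TAC 1 to 3, with controls at 24.62 to 26.52. It thus followed the order of the summed cardiomyocyte markers within VNS-TAC, and the part of those markers in the receptor values was not tested.

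**Figure D2:**
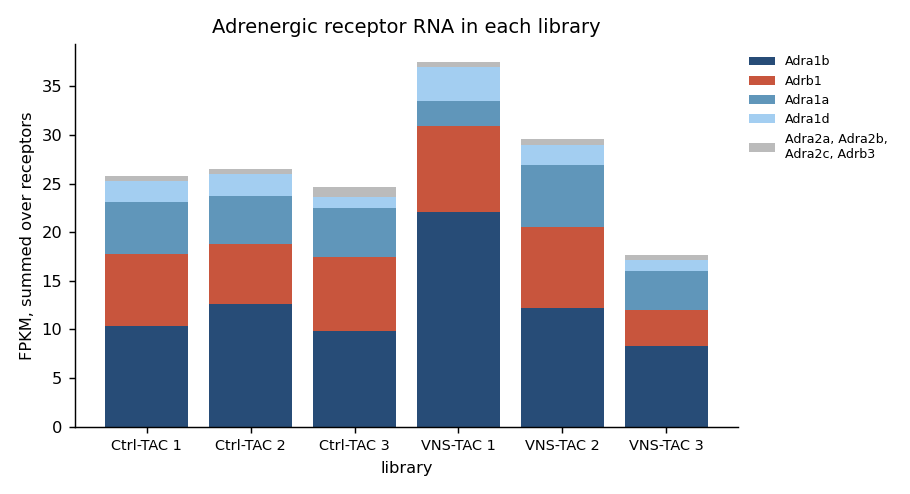
Stacked bars give the FPKM of the adrenergic receptor genes in each library, summed over 8 genes. The controls resemble each other (24.62 to 26.52), whereas VNS-TAC runs from 17.7 to 37.49, with the large Adra1b block and the small Adra1a block of VNS-TAC 1 visible at its base.

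Of the adenylyl cyclases, which make cAMP, the 2 known as the main forms of heart muscle were the most abundant in these libraries. Adcy6 (chromosome 15, 98589978 to 98610287) stood at 59.1, 75.37 and 88.12 FPKM in VNS-TAC 1 to 3, whereas the controls gave 53.26, 57.29 and 64.49. VNS-TAC 2 and 3 lay above all controls, while VNS-TAC 1 lay among them. The means were 74.2 ± 14.6 and 58.4 ± 5.69 FPKM (SD, n = 3), a difference of 0.33 (interval -0.07 to 0.72; limma adjusted p = 0.386). Without VNS-TAC 1 it was 0.48 (adjusted p = 0.137) and without VNS-TAC 3 it was 0.20. Array weights, which let VNS-TAC 2 dominate its group (weight 2.82 against 0.246 and 0.247), put it at 0.40 and just past the threshold (adjusted p = 0.0455). With these weights 1016 of the 11422 tested genes passed. An antisense gene, Gm29331, covers 8.92% of the exon bases of Adcy6, and the sources used here do not say whether the counting used strand.

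Adcy5 (chromosome 16, 35154494 to 35305743) stood at 27.42, 23.29 and 21.07 FPKM in VNS-TAC 1 to 3, whereas the controls gave 19.61, 19.87 and 27.71. Its highest value was in a control, Ctrl-TAC 3, and the difference was 0.10 (interval -0.30 to 0.51; limma adjusted p = 0.788). With a library left out it ran from 0.002 (without VNS-TAC 1) to 0.26 (without Ctrl-TAC 3), and it was 0.018 without Ctrl-TAC 1 and 0.027 without Ctrl-TAC 2. Adcy6 held 52.1%, 61.8% and 68.4% of the summed cyclase FPKM in VNS-TAC 1 to 3, with controls at 50.7% to 53.3%, while Adcy5 held 19.9 ± 3.98% and 19.9 ± 2.63% (SD, n = 3). The ratio of Adcy5 to Adcy6 was 0.464, 0.309 and 0.239 against 0.347 to 0.43, so both extremes lay in VNS-TAC.

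Grk5 (chromosome 19, 60889560 to 61095968), the kinase that phosphorylates active receptors and is also known to act in the nucleus in hypertrophy, stood at 11.48, 11.86 and 13.2 FPKM in VNS-TAC 1 to 3, whereas the controls gave 16.36, 13.86 and 11.28. Here the controls were the more variable group, and 1 of them lay under every VNS-TAC library. The difference was -0.16 (interval -0.52 to 0.21; limma adjusted p = 0.622), and it was -0.038 without Ctrl-TAC 1 and -0.29 without Ctrl-TAC 3. Grk2, the more abundant receptor kinase of these hearts, was at 28.8 ± 2.47 against 27.5 ± 1.09 FPKM (SD, n = 3; difference 0.06, limma adjusted p = 0.815).

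Prkaca (chromosome 8, 83972978 to 83996444), which encodes the main catalytic subunit of PKA, was the most abundant of the 9 genes. It stood at 187.9, 156.41 and 129.56 FPKM in VNS-TAC 1 to 3, whereas the controls gave 143.61, 151.41 and 172.65, so VNS-TAC held both the highest and the lowest value. The estimate of 0.01 (interval -0.38 to 0.39; limma adjusted p = 0.987) took either sign over the alternatives, between -0.13 and 0.14. Prkaca supplied 90.6 ± 2.53% of the FPKM of the pair Prkaca and Prkacb in VNS-TAC and 89.5 ± 0.45% in Ctrl-TAC (SD, n = 3).

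Pde4b (chromosome 4, 102087332 to 102607275), a cAMP phosphodiesterase of heart muscle and of immune cells, differed most of the 9 genes. It stood at 6.94, 8.07 and 5.19 FPKM in VNS-TAC 1 to 3, whereas the controls gave 9.57, 12.15 and 11.43. All VNS-TAC libraries lay below all controls, with the lowest value in VNS-TAC 3. The means were 6.73 ± 1.45 and 11.1 ± 1.33 FPKM (SD, n = 3), a ratio of 0.609. The difference of -0.65 ± 0.18 (SE; interval -1.06 to -0.24) had an unadjusted limma p of 0.00692 and missed the adjusted threshold (adjusted p = 0.234). It stayed negative in all 18 alternatives, between -0.78 and -0.42. Of those, 17 gave an unadjusted p under 0.05 and 0 an adjusted p under 0.05 (smallest 0.0774, with array weights). The exception was the removal of the trend on gene length, with an estimate of -0.48 (interval -0.96 to 0.01; limma adjusted p = 0.352).

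Marker sums that could bear on Pde4b moved in different directions. Those of 6 macrophage markers were 295.1, 186.8 and 150.4 FPKM in VNS-TAC 1 to 3, with controls at 234 to 261.2. Those of 6 neutrophil markers were 46.19 to 101.4 FPKM against 1.83 to 5.36, and those of 6 smooth muscle and pericyte markers 155.5 to 182.4 against 188.9 to 316.1. Those of 6 fibroblast markers were 277, 316.2 and 434 FPKM in VNS-TAC 1 to 3, with controls at 406.1 to 457.6. All 6 fibroblast markers had a lower mean in VNS-TAC, 3 of them at an unadjusted limma p under 0.05 (Col3a1 -1.59, Lum -1.30 and Col1a1 -1.01), and Lum alone without overlap. All 6 macrophage markers (median difference -0.36) and all 6 smooth muscle and pericyte markers (-0.505) also had a lower mean, as did 61.8% of all tested genes. In both lists 0 had an unadjusted limma p under 0.05. Without overlap, 0 macrophage and 2 smooth muscle and pericyte markers were lower, against 17.4% of all tested genes. At an unadjusted limma p under 0.05, 11.3% of all tested genes were lower and 3.79% higher. All 5 tested neutrophil markers were higher at that level and without overlap, where 8.01% of all tested genes were higher without overlap. Of 6 endothelial markers, 4 had a lower mean, with 2 lower without overlap and 1 lower at that level. As among all tested genes, 0 markers passed the adjusted threshold. No defining marker of these lists was at 0 in every library, and their part in the Pde4b values was not tested. The tested genes nearest to Pde4b over the 6 libraries were Klhl23, Dnajb1 and Ccl24, at a mean absolute distance of 0.05 on the centred log2 scale.

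Pde4d (chromosome 13, 108654177 to 109955969), a phosphodiesterase tied to beta receptors and the ryanodine receptor complex, stood at 4.95, 4.67 and 4.38 FPKM in VNS-TAC 1 to 3, whereas the controls gave 4.07, 4.02 and 4.29. The groups did not overlap, by a margin of 0.09 FPKM between VNS-TAC 3 and Ctrl-TAC 3. The difference was small, 0.14 (interval -0.14 to 0.42; limma adjusted p = 0.566), and was 0.08 with every library rescaled to the same sum and 0.34 with the length trend removed.

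**Figure D3:**
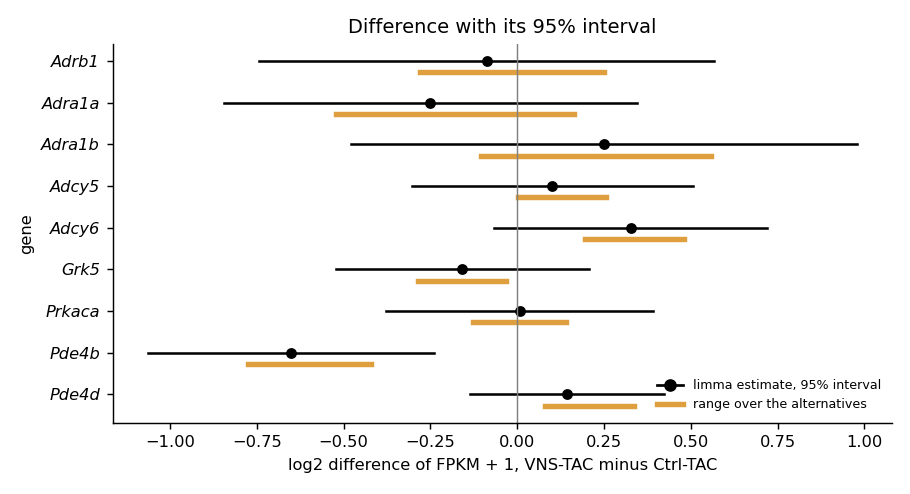
Black points and lines give the limma difference of each gene with its 95% interval, and orange bars the lowest and highest estimate over the alternatives (17 or 18 per gene). Only the interval of Pde4b (-1.06 to -0.24) lies wholly on 1 side of 0, and the estimates of Adrb1, Adra1a, Adra1b and Prkaca cross 0.

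Ratios of related genes were compared within each library for 5 pairs. A ratio of FPKM does not depend on how its library was scaled, whereas the tested log2 ratio of FPKM + 1 does so slightly at low levels. The ratio of Pde4d to Pde4b was 0.713, 0.579 and 0.844 in VNS-TAC 1 to 3, whereas the controls gave 0.425, 0.331 and 0.375, so it was higher in every VNS-TAC library. The log2 ratio of FPKM + 1 differed by 0.80 (0.89 with a pseudocount of 0.1), which in an exact 2-sided permutation test over 20 assignments gave p = 0.1, the smallest this design allows (0.5 after Benjamini-Hochberg adjustment over the 5 pairs). It was 0.68 to 0.92 when each library was left out in turn. The other 4 pairs overlapped between the groups. Adra1a to Adra1b was 0.116 in VNS-TAC 1 and 0.393 to 0.529 in the other 5 libraries, so its mean difference of -0.50 (exact permutation p = 0.7) became 0.12 without VNS-TAC 1.

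**Figure D4:**
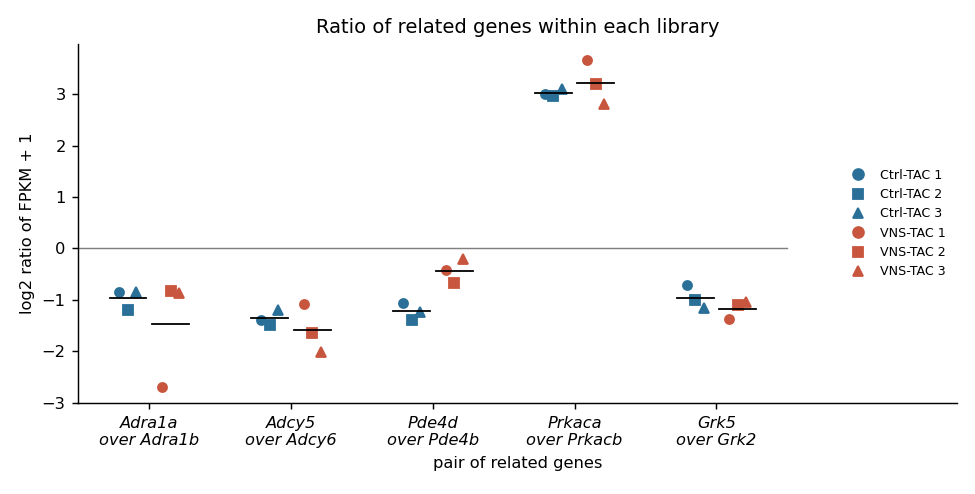
Log2 ratio of FPKM + 1 for 5 pairs of related genes, with 1 symbol per library and a line at each group mean. Pde4d over Pde4b is the only pair whose groups do not overlap (-0.68 to -0.20 for VNS-TAC, -1.39 to -1.06 for the controls), and VNS-TAC 1 stands alone for Adra1a over Adra1b.

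By level, the order in Ctrl-TAC was Prkaca, Adcy6, Adcy5, Grk5, Pde4b, Adra1b, Adrb1, Adra1a and Pde4d, from 155.9 to 4.13 FPKM. Neighbours overlapped there only for Grk5 with Pde4b and Pde4b with Adra1b. The VNS-TAC order ran Prkaca, Adcy6, Adcy5, Adra1b, Grk5, Adrb1, Pde4b, Pde4d and Adra1a, with 4 overlapping neighbour pairs, namely Adcy5 with Adra1b, Adra1b with Grk5, Adrb1 with Pde4b and Pde4d with Adra1a. The spread of log2 values was larger in VNS-TAC than in Ctrl-TAC for 7 of the 9 genes, as for 81.6% of all tested genes. VNS-TAC 1 held the highest value of 4 of the 9 genes and VNS-TAC 3 the lowest of 4.

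The wider pathway was described with 11 lists of 100 genes, of which 81 were tested. None passed the adjusted limma threshold. At an unadjusted p under 0.05, 10 were lower (12.3%, against 11.3% of all tested genes) and 2 higher (2.47%, against 3.79%), shares near the background. The count of 12 was 4 without Ctrl-TAC 2, 6 without Ctrl-TAC 1, and 21 without VNS-TAC 3. Over all tested genes the lower and higher counts, 1286 and 433 with all libraries, moved the same way. They were 582 and 178 without Ctrl-TAC 2, 620 and 210 without Ctrl-TAC 1, and 1908 and 566 without VNS-TAC 3. For the 81 genes the median difference was -0.17, against -0.08 over all tested genes, and -0.08 after quantile normalization, where the median of all genes was 0.01.

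In the other adenylyl cyclases, Adcy7, a form known from blood and immune cells, had the largest difference of the pathway lists on the log2(FPKM + 1) scale, closely followed by Pde7b, which was ahead at a pseudocount of 0.1 (-1.83 against -1.76). Adcy7 stood at 3.12, 3.41 and 1.07 FPKM in VNS-TAC 1 to 3, whereas the controls gave 9.18, 8.28 and 6.54, a ratio of means of 0.317 (difference -1.41, interval -2.11 to -0.72; limma adjusted p = 0.19). It was lower in 3 of 3 VNS-TAC libraries than in every control. Adcy4 was at 12.4 ± 2.33 against 14.8 ± 1.46 FPKM (SD, n = 3), and its groups overlapped.

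Pde7b, a cAMP-specific phosphodiesterase, stood at 1.38, 2.73 and 0.97 FPKM in VNS-TAC 1 to 3, whereas the controls gave 6.66, 6.76 and 4.25, again without overlap (ratio of means 0.287, difference -1.39, interval -2.02 to -0.76; limma adjusted p = 0.187). Adcy7 and Pde7b passed only with array weights (limma adjusted p = 0.011 and 0.0158), a setting in which 1016 of the 11422 tested genes passed. The fibroblast and other marker sums given beside Pde4b stand beside Adcy7, Pde7b and Akap12 too, and their part in these values was not tested. Of the 12 tested phosphodiesterase genes outside the 9, 8 had a lower mean, as did 61.8% of all tested genes, and 5 did without VNS-TAC 1. Besides Pde7b, only Pde8b was lower without overlap (0.69 to 1.06 against 1.12 to 1.23 FPKM; difference -0.19, limma adjusted p = 0.514). These 2 of the 12 (16.7%) stand beside 17.4% of all tested genes, a share near the background. Among the abundant ones, Pde3a, which controls cAMP near the sarcoplasmic reticulum, was at 9.57 ± 3.11 against 10.03 ± 1.08 FPKM, Pde2a at 23.7 ± 2.84 against 23.1 ± 2.83, and Pde4a, the most abundant PDE4 gene, at 20.3 ± 10.2 against 21.0 ± 1.16 (SD, n = 3). At an unadjusted p under 0.05, 1 of the 12 was lower (8.33%, against 11.3% of all tested genes) and 0 higher (against 3.79%). With no filter on low values 3 of 15 were lower, where 1820 of 17655 genes were.

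A-kinase anchoring proteins hold PKA next to its substrates, and all 10 tested members had a lower mean in VNS-TAC, against 61.8% of all tested genes. At an unadjusted p under 0.05, 3 of the 10 were lower, against 11.3% of all, and the median difference was -0.28, against -0.08 over all tested genes. After size factors 9, after quantile normalization 8 and after removal of the length trend 7 of the 10 were lower. The medians were then -0.23, -0.13 and -0.08, against -0.03, 0.01 and -0.01 over all tested genes. Without VNS-TAC 1 the median was -0.05, the same as that of all tested genes (-0.05). Of the 10, 8 were then lower, 3 at an unadjusted p under 0.05, where 1711 of 11476 genes were lower at that level. Without VNS-TAC 2 or VNS-TAC 3 the median was -0.34 or -0.42, against -0.09 or -0.10 over all tested genes. It was -0.24 to -0.30 without a control library, against -0.08 to -0.09. With all 6 libraries, 4 of the 10 were lower without overlap, against 17.4% of all tested genes. Akap2, which is among the 3 at an unadjusted p under 0.05 with all 6 libraries, shares 84.4% of its exon bases with Pakap and is uncertain. Akap12, an anchor that binds beta receptors, stood at 7.29, 7.33 and 4.41 FPKM in VNS-TAC 1 to 3, whereas the controls gave 11.11, 12.68 and 12.23 (difference -0.85, interval -1.30 to -0.40; limma adjusted p = 0.198). Akap1, the mitochondrial anchor, had equal means of 48.4 ± 3.98 and 48.3 ± 3.33 FPKM (SD, n = 3), and its estimate took either sign over the scalings.

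Among PKA subunits and inhibitors, Pkia, an inhibitor peptide of the catalytic subunit, was at 25, 37.33 and 33.16 FPKM in VNS-TAC 1 to 3, whereas the controls gave 51.45, 58.74 and 40.03 (difference -0.64, interval -1.10 to -0.18; limma adjusted p = 0.251). Prkar1a, the main type I regulatory subunit, was at 161 ± 6.92 against 189 ± 8.30 FPKM (SD, n = 3), also without overlap (difference -0.23; adjusted p = 0.373). Of these 6 tested genes, 2 were lower at an unadjusted p under 0.05 and 0 higher, where 11.3% and 3.79% of all tested genes were. The count of 2 was 0 without Ctrl-TAC 2, 1 without VNS-TAC 1, Ctrl-TAC 1 or Ctrl-TAC 3, and 3 without VNS-TAC 3. Over all tested genes the lower count of 1286 became 582 without Ctrl-TAC 2 and 1908 without VNS-TAC 3. It became 1711, 620 and 983 without VNS-TAC 1, Ctrl-TAC 1 and Ctrl-TAC 3.

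G protein subunits gave 1 lower gene of 10 at that level, against 11.3% of all tested genes, and 0 without Ctrl-TAC 1 or Ctrl-TAC 2. Over all tested genes the lower count of 1286 became 620 and 582 in those refits. The lower subunit gene was Gnaq, which carries the signal of Adra1a and Adra1b, as its relative Gna11 also can. Gnaq was at 3.64 ± 1.03 against 5.58 ± 0.78 FPKM (SD, n = 3; difference -0.53, limma adjusted p = 0.29). The more abundant Gna11 went the other way, at 34.5 ± 1.51 against 31.7 ± 0.99 FPKM (SD, n = 3; difference 0.12, limma adjusted p = 0.592). It was higher without overlap, as were 8.01% of all tested genes. Gnas, which encodes Gs, was at 719 ± 104 against 701 ± 6.11 FPKM, and antisense and overlapping genes share parts of its exons. Arrb2, an arrestin, was at 8.12 ± 1.37 against 10.8 ± 1.83 FPKM, with the groups overlapping. Arrb1, the other arrestin of the list, was at 6.86 ± 0.36 against 8.09 ± 0.07 FPKM (SD, n = 3; difference -0.21, limma adjusted p = 0.402). It was lower without overlap, as were 17.4% of all tested genes.

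Of the genes that act on the products of the pathway, Popdc2, a cAMP-binding membrane protein of striated muscle, was at 435.98, 321.78 and 363.89 FPKM in VNS-TAC 1 to 3, whereas the controls gave 281.24, 257.7 and 299.21, without overlap (difference 0.41, interval 0.06 to 0.76; limma adjusted p = 0.279). Lipe, hormone-sensitive lipase, was at 25.4 ± 5.54 against 18.5 ± 1.48 FPKM (SD, n = 3; difference 0.41, adjusted p = 0.329), beside adipocyte marker sums of 2.64 to 25.39 and 9.3 to 64.54 FPKM, whose part was not tested. The PKA substrates Pln, Ryr2, Cacna1c and Tnni3 all overlapped, with differences of -0.30, -0.18, 0.06 and 0.24. Crem, a CREB relative that cAMP is known to induce, was at 3.12, 2.84 and 2.48 FPKM in VNS-TAC 1 to 3, whereas the controls gave 5.07, 4.74 and 3.56 (difference -0.51, interval -0.88 to -0.14; adjusted p = 0.251), and Atf1 at 17.5 ± 4.73 against 23.7 ± 1.72 with overlap.

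Genes of catecholamine supply were scarce. Th, the first enzyme of noradrenaline synthesis, was at most 0.04 FPKM in every library, and 0 of the 6 neurone markers reached the filter. Of the 5 tested catecholamine genes, 0 had an unadjusted limma p under 0.05. With no filter on low values 2 of 9 were lower at that level, where 1820 of 17655 genes were. They were Dbh (-0.31, limma adjusted p = 0.294) and Slc18a2 (-0.33, adjusted p = 0.29), both below the filter of a mean of 1 FPKM. Pnmt, which makes adrenaline, was at 0.84, 1.31 and 5.76 FPKM in VNS-TAC 1 to 3, whereas the controls gave 0.7, 0.57 and 1.06, so its difference of 0.80 (adjusted p = 0.42) rested on VNS-TAC 3. Maob, a monoamine oxidase that breaks amines down, was at 23.5 ± 2.05 against 20.8 ± 2.98 FPKM (SD, n = 3), and its groups overlapped.

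**Figure D5:**
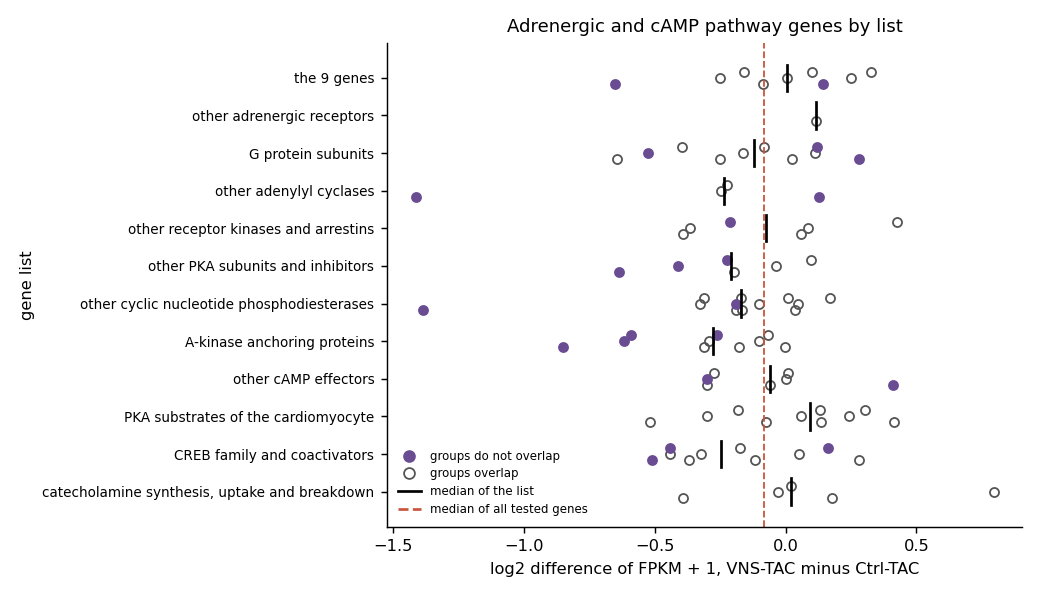
Each circle is 1 tested gene, placed by its limma difference, and filled where the 3 libraries of a group all lie on 1 side of the others. Black ticks mark list medians and the dashed line the median of all tested genes (-0.08); Adcy7 (-1.41), Pde7b (-1.39) and Akap12 (-0.85) lie farthest to the left.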

How the data were processed

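The authors' deposited table gives FPKM per gene and library, per the file headers, to 2 decimals. The submitters' processing notes name HISAT, featureCounts 1.5.0-p3, DESeq 1.8.3 and the build GRCm38 but no roles, and the annotation and strand settings are not given in the sources here. Library names tied each Ctrl-TAC column to its sample. Columns of VNS-TAC carry the numbers 1 to 3 where the labels have 4 to 6, so they served as 3 libraries of that group under their column numbers. Groups came from sample titles, because the treatment label reads VNS for all 6 samples. Nothing says that libraries came from separate animals, so p-values measure the spread between libraries, which may be partly technical.

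Symbols came from RefSeq GRCm38.p6 (17890 IDs) and GENCODE M21 (15 more). The 11422 genes that averaged 1 FPKM or more were fitted as log2(FPKM + 1) with limma 3.58.1 in R 4.3.3 (intensity trend, Benjamini-Hochberg over all tested genes, threshold 0.05), after tests on simulated data. Those simulations gave both groups the same spread, so the fit was not checked under the wider spread of VNS-TAC. Ratios of related genes used exact permutation tests (scipy 1.17.1). Alternatives were other pseudocounts (0.1, 0.5), filters (none, 5 FPKM), scalings, limma settings, removal of GC or length trends, and each library left out. The genes and lists were chosen with earlier results of these data known. Besides the 9 genes, the text names from each list the gene with the smallest p and the gene with the highest mean. It also names 8 core genes of the pathway, and the genes nearest in pattern to Adrb1 and Pde4b. Adra2a, Adra2b, Adra2c, Adrb3, Akap2, Arrb1, Dbh, Gna11, Pde8b, Prkacb, Slc18a2, Th and marker genes were added to describe families and lists. Some genes of the lists, with 1 ratio, are not reported here and enter no list count or adjustment over pairs. Depth was estimated from the steps of low values and entered no test.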

Additional observations from a re-analysis of the deposited data

How the results depend on the processing

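Of the 9 genes, 0 passed the adjusted limma threshold with or without each library, and 1 (Adcy6) did with array weights. Over all genes, where none passed (1719 had an unadjusted p under 0.05), 1 passed with a filter at 5 FPKM, 1 with size factors, 2 after quantile normalization, 2 with the GC trend removed, 1016 with array weights, and 0 to 3 when a library was left out. In the pathway lists 8 of 81 passed with array weights, beside 1016 of 11422 over all genes, and 0 in the other alternatives. Their count at an unadjusted p under 0.05 was 12, and 4 to 21 with a library left out, a check chosen after seeing the data. The counts over all tested genes moved with it, from 582 lower and 178 higher (without Ctrl-TAC 2) to 1908 and 566 (without VNS-TAC 3). The median difference of the 9 genes was 0.01, and ran from -0.10 (without VNS-TAC 1) to 0.18 (without VNS-TAC 3). It also turned negative with equal FPKM sums (-0.07), with the GC trend removed (-0.02), and without Ctrl-TAC 1 (-0.04) or Ctrl-TAC 2 (-0.01). These moves were smaller than the spread between VNS-TAC libraries. That spread was wide, with medians of 0.22, 0.15 and -0.26 from the control mean in VNS-TAC 1 to 3, so the sign is not settled.

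Signs turned for 4 of the 9 genes. Adrb1 went from -0.09 to 0.019 after quantile normalization and 0.14 with array weights, and ran from -0.28 to 0.25 (without VNS-TAC 1 and VNS-TAC 3) when a library was left out. Adra1a went from -0.25 to 0.16 with array weights and ran from -0.52 to 0.012 (without VNS-TAC 2 and VNS-TAC 1), and Adra1b from -0.10 to 0.56 (without VNS-TAC 1 and VNS-TAC 3). Prkaca went from 0.01 to -0.069 with equal FPKM sums, -0.02 with the GC trend removed, -0.13 without VNS-TAC 1, -0.05 without Ctrl-TAC 1 and -0.01 without Ctrl-TAC 2. With a library left out, the log2 ratio of Adra1a to Adra1b ran from -0.82 to 0.12 and that of Prkaca to Prkacb from -0.016 to 0.41; both turned without VNS-TAC 1 (0.115 and -0.016). What lies behind these turns was not tested, for any of them.

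No paired analysis was possible because column numbers of VNS-TAC (1 to 3) and of its labels (4 to 6) differ, and no replicate block was fitted. Depth limits Adra1d most among the receptors named with a test, at about 31 to 106 fragments per library.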
